A study of Capra hircus with 4 samples.

Results

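The genes MCM2, MCM3, MCM4, MCM5, MCM6, MCM7, MCM10 and PCNA, 8 of the 28944 genes counted, were chosen by name as core components of the DNA replication machinery and were followed across granulosa states and the other cell classes of the goat ovary. Nuclei of the ovary were profiled by droplet single-nucleus RNA sequencing in 2 Nubian goats, a breed with large litters, and 2 Du'an goats, a breed with mostly single births, with 1 library per goat. All 4 goats were about 3 years old, had 3 lambing records, and had received intravaginal progesterone (300 mg) for 17 days to synchronise estrus, so the untreated cycle was not sampled. Breed cannot be told apart from anything else that the goats of one breed share. Each value rests on UMIs, the molecular tags that mark single RNA molecules.

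MCM2 to MCM7 are the subunits of the ring-shaped helicase that is loaded on replication origins before S phase and unwinds the DNA ahead of the replication fork. MCM10 takes part in activating that helicase and stays with the fork, and PCNA is the sliding clamp that holds DNA polymerases and many repair factors on the template. The genes are textbook targets of E2F transcription factors and are used as markers of proliferating cells. In the ovary, granulosa cells are the dividing cells of growing follicles, whereas mural granulosa cells of late follicles slow down as they turn to steroid synthesis.

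The matrices held 48332 barcodes and the stated limits on UMIs, genes and mitochondrial share and the removal of 151 barcodes called as doublets in Du'an 2 left 44734 nuclei with 167261302 UMIs, 8723 and 9861 in Du'an 1 and Du'an 2 and 15848 and 10302 in Nubian 1 and Nubian 2. Between 54 and 131 barcodes were shared by any pair of libraries. Nuclei were clustered without the 8 genes, and clusters were named from marker lists, each name being a likeness and not an identity. The granulosa set split into mural granulosa-like nuclei (6344), common progenitor granulosa-like nuclei (6985), nuclei with granulosa markers but no state (6697) and cycling granulosa-like nuclei (1465, of which 163, 261, 770 and 271 came from Du'an 1, Du'an 2, Nubian 1 and Nubian 2). All 9 cycling markers were up in both subclusters of the cycling class, subcluster 8 (746 nuclei, 700 of them from Nubian 1) and subcluster 9 (719 nuclei from all 4 goats). Other states were also held by different subclusters in different goats. The mural nuclei came from subcluster 1 in Nubian 1, from subcluster 7 in Du'an 2 and from subcluster 10 in Nubian 2, and Du'an 1 had none. In subcluster 10 all 9 cycling markers were up as well, with a mean log2 fold of 2.53. The nuclei without a state came mainly from subcluster 4 in Du'an 2 and from subcluster 2 in the other goats.

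Levels are given as CPM, the UMIs of a gene per 1000000 UMIs of the summed nuclei of 1 goat and class, and are compared within a gene, not between genes. All 8 genes passed the filter on low counts in the fit over classes. MCM6 was represented by 3844 UMIs over all barcodes and MCM5 by 1534, the most and the fewest of the 8. In each nucleus these genes are rare: the median kept nucleus held 2271 UMIs in all.

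In cycling granulosa-like nuclei all 8 genes were higher than in the 3 non-cycling granulosa states pooled, and 7 of the 8 were higher in every goat with no overlap of the groups. By edgeR's quasi-likelihood test, blocked by goat and adjusted by Benjamini-Hochberg over 14852 genes, all 8 passed an adjusted p of 0.05, where 7.84% of all genes were called higher and 5.41% lower. Of genes with at least as many UMIs as the rarest of the 8, 10.9% had groups of 4 goats that did not overlap with the cycling nuclei higher. Set against the nuclei without a state alone, in the fit over classes, only MCM10 (1.89 ± 0.34, adjusted p = 5.47e-05) and MCM4 (1.198 ± 0.31, adjusted p = 0.00893) were called, where 4.96% of all genes were higher. The other 6 differed there by 0.59 to 1.03, with adjusted p of 0.102 to 0.276. The median log2 fold change of the 8 genes against the mean of the 3 states was 1.60, and that of all genes tested was -0.10. The fitted changes weigh the 3 states equally, without a mural sum in Du'an 1, whereas levels and overlaps are those of the pooled nuclei. The classes were cut from the same nuclei, so these tests measure how steady the difference was over 4 goats and are not independent of the clustering.

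Among the helicase subunits, MCM4 had the largest difference. It stood at 36.4 and 22.4 CPM in the cycling nuclei of Du'an 1 and Du'an 2 and at 19.985 and 19.1 CPM in those of Nubian 1 and Nubian 2. In the non-cycling granulosa nuclei of the same goats it stood at 5.38, 5.23, 5.36 and 6.64 CPM. Every cycling sum was above every non-cycling sum, and the fitted log2 fold change was 2.08 ± 0.26 (SE, adjusted p = 1.36e-08). MCM5 rose by 1.95 ± 0.30 (adjusted p = 1.57e-06), from 3.20 ± 0.68 to 12.2 ± 4.54 CPM (SD, n = 4 goats). MCM3 rose by 1.74 ± 0.28 (adjusted p = 3.93e-06), with cycling sums of 17.9 to 22.4 CPM and non-cycling sums of 4.28 to 6.99 CPM.

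MCM2 and MCM6 showed smaller differences that were just as regular over goats. MCM2 stood at 7.88, 13.7, 12.6 and 10.998 CPM in the cycling nuclei of Du'an 1, Du'an 2, Nubian 1 and Nubian 2 and at 3.70, 4.60, 4.39 and 4.86 CPM in the non-cycling nuclei. The ratio of the levels lay between 2.13 and 2.98 in the 4 goats, and the fitted change was 1.45 ± 0.29 on the log2 scale (adjusted p = 0.000223). MCM6 stood at 40.4, 27.5, 27.8 and 32.4 CPM in cycling nuclei and at 11.8, 10.6, 11.7 and 13.2 CPM in non-cycling nuclei. No cycling sum of MCM6 overlapped a non-cycling sum, and the change was 1.28 ± 0.25 (adjusted p = 0.000148).

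MCM7 was the exception among the subunits. Its level in cycling nuclei was even over the goats, at 19.7, 18.8, 19.2 and 16.2 CPM. In non-cycling nuclei it was 8.80 CPM in Du'an 2 and 7.91 CPM in Nubian 1 but 17.2 CPM in Du'an 1 and 16.3 CPM in Nubian 2. The groups overlapped, and in Nubian 2 the level in cycling nuclei was 0.996 times the level in non-cycling nuclei. The non-cycling pools differed in their states. Common progenitor-like nuclei were 3112 of 4078 in Du'an 1 and 2956 of 4741 in Nubian 2. They were 256 of 4101 in Du'an 2 and 661 of 7106 in Nubian 1. The fitted change was 0.75 ± 0.23 (adjusted p = 0.0194). MCM7 lost its call without Nubian 1 (0.57, adjusted p = 0.253) and without Du'an 2 (0.67, adjusted p = 0.131).

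MCM10, the helicase activator, had the largest change of the 8 genes. Cycling nuclei held 38.4, 30.2, 29.1 and 38.8 CPM in Du'an 1, Du'an 2, Nubian 1 and Nubian 2, against 6.44, 5.15, 5.69 and 7.96 CPM in non-cycling nuclei. The ratio was between 4.87 and 5.96 in every goat, and the log2 fold change was 2.26 ± 0.27 (adjusted p = 3.89e-09). PCNA, the clamp, stood at 7.88, 8.24, 5.77 and 8.68 CPM in cycling nuclei and at 2.50, 2.87, 2.58 and 3.66 CPM in non-cycling nuclei, again without overlap. Its change of 1.24 ± 0.34 (adjusted p = 0.00841) was lost without Nubian 1 (1.16, adjusted p = 0.0884).

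**Figure D1:**
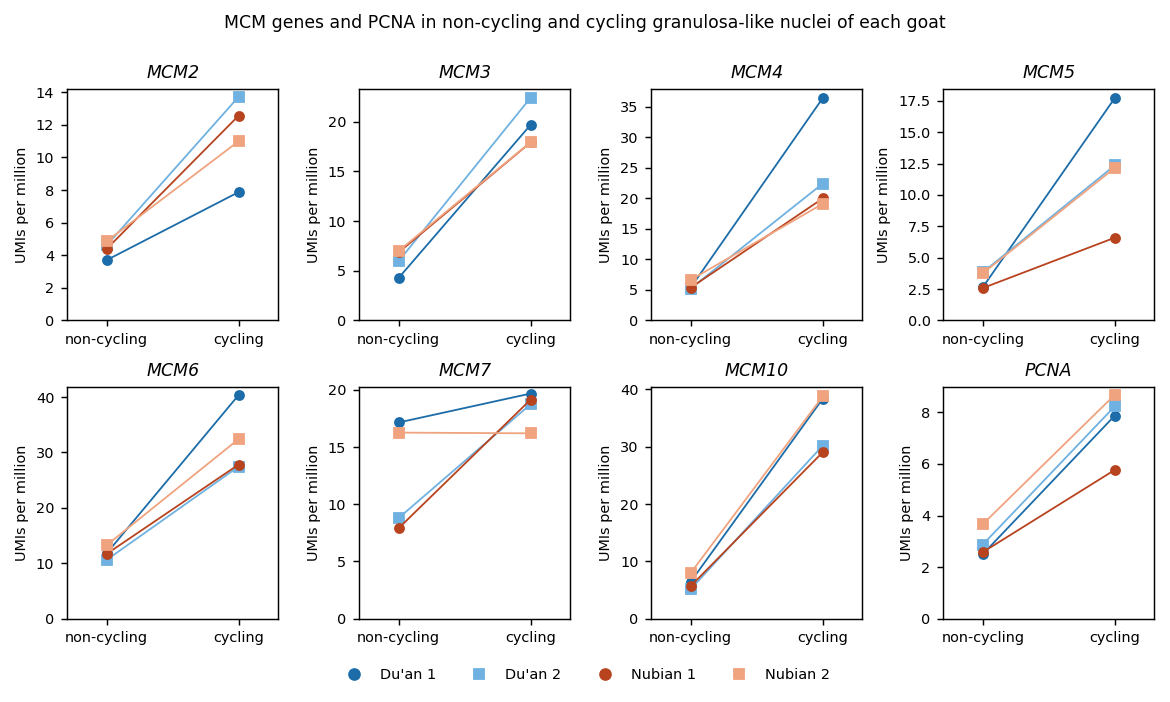
Level of each gene, in CPM on a linear axis, in the non-cycling (left) and cycling (right) granulosa-like nuclei of each goat, with a line per goat. The lines rise in all 4 goats for 7 of the 8 genes, while MCM7 runs level in Nubian 2 and nearly so in Du'an 1.

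The call on the whole set of 8 changed with how the cycling nuclei were gathered. With a clustering resolution of 0.4 or 1.2, 6 and 5 of the 8 genes were called, and with the highest 10% of doublet scores removed only MCM4 (1.47, adjusted p = 0.0217) and MCM10 (1.64, adjusted p = 0.00774) were. In those 3 alternatives the cycling class shrank to 751, 722 and 640 nuclei, nearly all of them from subcluster 8 (716, 711 and 628), none came from subcluster 9, and only 2 goats, Du'an 2 and Nubian 1, had a sum. All 8 differences stayed positive there, between 0.84 and 1.98 on the log2 scale. The share of all genes called in these alternatives is not given here, and the part of the smaller number of goats in the fewer calls was not tested. With subcluster 9 alone, which all 4 goats held, 7 of the 8 were called and MCM7 was not (0.58, adjusted p = 0.12).

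Within the cycling class the 8 genes were placed along the cell cycle with lists that hold none of the 8 and were left out of the clustering genes, although 9 of the mitosis genes had named the class. Each of 1463 nuclei was given the share of its UMIs on 21 S-phase genes, such as RRM2 and TYMS, out of those on the S-phase genes and 35 mitosis genes, such as MKI67 and TOP2A. Nuclei were then divided into 3 ranges with nearly equal numbers of nuclei, with limits at 12.1% and 26.1% of the score. These are ranges of a score and not types, and 240 and 105 nuclei lay within 2 points of the lower and upper limit. MCM6 had the steepest course, with 73.5, 54.4, 63.5 and 71.4 CPM in the S-leaning range of Du'an 1, Du'an 2, Nubian 1 and Nubian 2 and 10.8, 1.78, 2.53 and 3.95 CPM in the mitosis-leaning range. The groups were far apart, with 223 UMIs against 10, and the log2 fold change was 4.09 ± 0.33 (edgeR, adjusted p = 4.37e-09). Over all 6892 genes tested, 11.8% were called higher in the S-leaning range. The filter on low counts can be met by the sums of 1 range alone. A gene could thus enter the test through the range where it is high, and the fit without the filter is given below.

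MCM3 and MCM4 had similar courses. MCM3 stood at 39.2 ± 4.10 CPM in the S-leaning range and 5.12 ± 2.76 CPM in the mitosis-leaning range (SD, n = 4), a change of 2.68 ± 0.44 (adjusted p = 8.35e-05). MCM4 stood at 48.1 ± 15.4 and 7.15 ± 3.79 CPM, a change of 2.61 ± 0.32 (adjusted p = 1.67e-06). MCM7, which hardly separated cycling from non-cycling nuclei in 2 goats, did separate these ranges, with 26.4 to 32.4 CPM against 5.33 to 11.8 CPM and a change of 1.55 ± 0.31 (adjusted p = 0.000603). MCM10 changed by 1.38 ± 0.23 (adjusted p = 0.000105). Its level in the mitosis-leaning range, 14.5 to 32.3 CPM, was still above the non-cycling granulosa levels pooled over states, which reached 7.96 CPM. Parts of those pools were higher. Subcluster 2, without a state, held 14.3 CPM in Du'an 1 and 15.7 CPM in Nubian 2, against 32.3 and 21.7 CPM in the mitosis-leaning range of the same goats.

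MCM2, MCM5 and PCNA did not pass the filter on low counts in this comparison. They were represented by 11, 10 and 7 UMIs in the mitosis-leaning range and by 74, 62 and 41 in the S-leaning range. PCNA stood at 14.2, 12.5, 9.72 and 13.98 CPM in the S-leaning nuclei of Du'an 1, Du'an 2, Nubian 1 and Nubian 2 and at 3.59, 1.78, 2.53 and 1.97 CPM in the mitosis-leaning nuclei, with no overlap. Without the filter these genes gave log2 fold changes of 2.46, 2.24 and 2.19, and all 8 genes were called. The share of all genes called in that unfiltered fit is not given here.

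**Figure D2:**
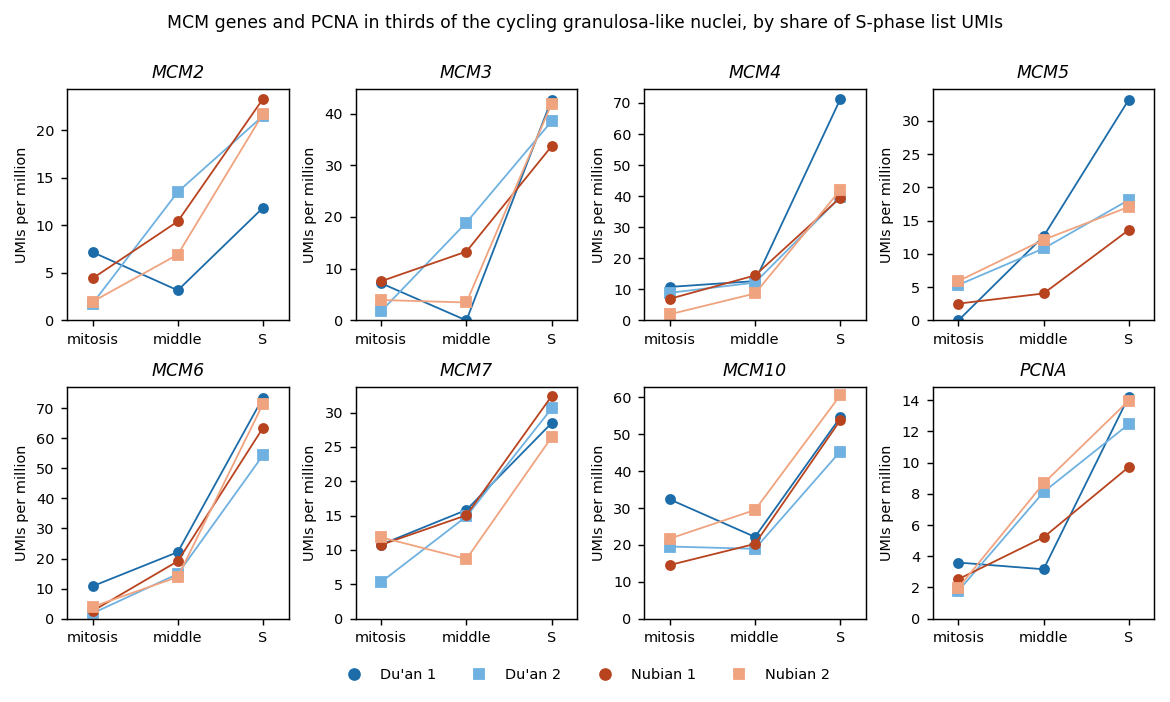
Level of each gene, in CPM, in 3 ranges, nearly equal in number, of the cycling granulosa-like nuclei ordered by the share of gate UMIs on S-phase genes, with a line per goat, on linear axes. MCM6 climbs from a mean of 4.76 to 65.7 CPM, whereas MCM10 starts at 22.0 CPM.

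Outside the cycling class, the granulosa states were not level. The nuclei without a state carried more of 5 helicase subunits than the common progenitor-like nuclei, a comparison in which 7.04% of all genes were lower in the progenitor-like nuclei and 9.83% higher. MCM5 differed most, with 0.995, 2.53, 1.37 and 1.75 CPM in the progenitor-like nuclei of Du'an 1, Du'an 2, Nubian 1 and Nubian 2 and 8.24, 5.04, 3.75 and 7.84 CPM in the nuclei without a state. The groups did not overlap, and the difference was -2.08 ± 0.40 (progenitor minus no state, adjusted p = 0.00011). MCM3 (-1.81 ± 0.36), MCM4 (-1.70 ± 0.35), MCM6 (-1.33 ± 0.32) and MCM2 (-1.12 ± 0.36) were lower in the same direction, with adjusted p from 0.000204 to 0.0263. MCM10 (-0.89, adjusted p = 0.0867) and PCNA (-0.52, adjusted p = 0.469) were not called.

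MCM7 ran the other way between states. It stood at 17.9, 12.03, 13.4 and 18.4 CPM in the common progenitor-like nuclei of Du'an 1, Du'an 2, Nubian 1 and Nubian 2. Mural nuclei held 5.3504, 6.28 and 7.02 CPM in Du'an 2, Nubian 1 and Nubian 2, below every progenitor sum. The difference was -1.19 ± 0.31 (mural minus progenitor, adjusted p = 0.00286), where 12.6% of all genes were called lower and 8.34% higher in mural nuclei. Between mural nuclei and those without a state none of the 8 was called, where 6.89% of all genes were lower and 4.7% higher, and the differences of all 8 were between -0.97 and -0.12 (MCM5 and PCNA). In Nubian 2, 404 of the 427 mural nuclei came from subcluster 10, in which the cycling markers were up. The mitosis genes stood at 1407 CPM in the mural nuclei of Nubian 2, against 205 and 269 CPM in Du'an 2 and Nubian 1.

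These 6 called differences between states became 12, 11 and 10 of 24 with the resolutions of 0.4 and 1.2 and with the highest doublet scores removed, in which 718, 715 and 688 of the 719 nuclei of subcluster 9 were counted as nuclei without a state. The common progenitor-like nuclei of Du'an 1 came mainly from subclusters 3 and 5 (2043 and 1029 nuclei). Those of Nubian 2 came mainly from subcluster 6 (1904), with 682 and 370 in subclusters 3 and 5. The nuclei without a state of Du'an 2 came mainly from another subcluster than those of the other goats. A state and a goat's own subcluster can therefore not be fully told apart.

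The nuclei without a state were examined for hidden dividing nuclei. Nuclei with at least 3 UMIs from at least 2 mitosis genes (769 nuclei) were set against those with no UMI of that list (3231 nuclei). In the former, 7 of the 7 genes that passed the filter were called higher, where 4.23% of all 9861 genes were. Here and in the other classes below, the filter on low counts can be met by the gated sums alone. Which genes were tested therefore depended in part on their gated level, and 7 of 7 is not independent of the filter. MCM6 stood at 53.6 ± 21.0 CPM in the gated nuclei and 10.6 ± 4.72 CPM in the others (SD, n = 4), a log2 fold change of 2.27 ± 0.18 (adjusted p = 1.06e-08). MCM2 changed by 2.31 ± 0.29, MCM10 by 2.29 ± 0.26, MCM3 by 2.12 ± 0.28, MCM4 by 1.99 ± 0.22, MCM5 by 1.65 ± 0.30 and MCM7 by 0.82 ± 0.23 (adjusted p of MCM7 = 0.0401). The call of MCM7 was lost in 8 of 10 alternatives, with changes of 0.63 to 0.96 over the 10. PCNA did not pass the filter, with 4.36 to 9.72 CPM in gated and 1.55 to 4.06 CPM in ungated nuclei. Without the filter all 8 genes were called in this class, PCNA at 1.32 ± 0.39 (edgeR, adjusted p = 0.0192). The share of all genes called in that unfiltered fit is not given here. The gated nuclei were also deeper, with median UMIs of 4684 to 9381 per goat against 2779 to 4989, and the part of depth in these values was not tested.

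In mural nuclei 1 of 6 genes tested was called, MCM4 at 13.4 ± 6.73 against 2.88 ± 1.75 CPM (SD, n = 3 goats, 2.28 ± 0.33, adjusted p = 0.0278), where 0.442% of all genes were called higher. The other 5 were also higher in the fit, by 0.71 to 1.65 on the log2 scale, with adjusted p of 0.269 to 0.849. In common progenitor-like nuclei 2 genes could be tested and neither was called, where 1.1% of all genes were higher, MCM6 at 0.68 and MCM7 at -0.35. In T or natural killer-like nuclei 3 were tested and none was called, where 0.975% were higher, with MCM4 at 2.53 ± 0.58 (adjusted p = 0.111). No member of the set passed the filter in smooth muscle-like, endothelial-like or macrophage-like nuclei. Without the filter MCM3 was called by edgeR in macrophage-like nuclei (2.51 ± 0.64, adjusted p = 0.0155), and no other gene was called in these classes. The unfiltered edgeR fits also called MCM4 and MCM2 in T or natural killer-like nuclei (adjusted p = 0.00202 and 0.00622). In mural nuclei they called MCM2, MCM3, MCM4, MCM6 and MCM10, with adjusted p of 1.06e-06 to 0.0122. The shares of all genes called in these unfiltered fits are not given here.

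Nuclei rich in helicase transcripts were also counted directly. Of the granulosa set, 262 nuclei held UMIs of at least 3 of the 6 subunits MCM2 to MCM7 (35, 76, 86 and 65 in Du'an 1, Du'an 2, Nubian 1 and Nubian 2), and 30.2% of them were in the cycling class, against 4.98% of the 17861 nuclei with none of the 6. A larger number, 130 of the 262, were among the nuclei without a state. The S-phase genes stood at 2880 CPM in the 262 nuclei and at 619 CPM in those with none, and the mitosis genes at 2245 and 943 CPM. The helicase-rich nuclei were deeper, with a median of 9880 UMIs against 4008, which by itself raises the number of genes seen.

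Over the 14 classes the order of levels differed between the 8 genes. The fit over 52 sums of goat and class called 27 of 112 contrasts of a gene in a class against the mean of the other classes, and 8 of these were the cycling class, in which 20.4% of all genes were called higher. Cycling granulosa-like nuclei had the highest mean level of MCM2, MCM3, MCM4, MCM5, MCM6 and MCM10. For MCM10 the cycling class exceeded each of the 13 others, the nearest being the T or natural killer-like class at 13.7 ± 4.14 CPM (1.27 ± 0.37, adjusted p = 0.00358). Neighbours in the order mostly did not separate: 4 of 104 pairs of adjacent classes differed, against 184 of all 728 pairs.

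T or natural killer-like nuclei (2471) had the second highest mean of MCM3, MCM5, MCM6 and MCM10. MCM6 stood there at 26.6, 45.9, 25.8 and 21.0 CPM in Du'an 1, Du'an 2, Nubian 1 and Nubian 2, and MCM5 at 5.91, 13.1, 9.47 and 10.01 CPM. These levels overlapped those of the cycling nuclei, and the fitted differences between the classes were 0.02 ± 0.32 and 0.10 ± 0.38 on the log2 scale. In this class 7 of the 8 genes were higher than the mean of the other classes (all but MCM7, 0.43, adjusted p = 0.154), from 1.01 for MCM2 to 2.52 for PCNA, while 31.3% of all genes were called higher. MCM2 lost its call without Du'an 2, which gave 1608 of the nuclei and 44 of its 55 UMIs (0.54, adjusted p = 0.546).

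PCNA was ordered unlike the rest. Its highest level was in macrophage-like nuclei (1457), with 47.8, 12.7, 19.1 and 48.8 CPM in Du'an 1, Du'an 2, Nubian 1 and Nubian 2, and the next among T or natural killer-like nuclei, at 8.86, 23.8, 17.2 and 36.0 CPM. Both groups were above the cycling granulosa-like nuclei in all 4 goats, by 1.82 ± 0.41 (adjusted p = 0.000168) and 1.49 ± 0.40 (adjusted p = 0.00173) on the log2 scale. In Du'an 1 the T or natural killer-like level of 8.86 CPM was close to the cycling one of 7.88 CPM, which rested on 8 UMIs. In macrophage-like nuclei PCNA (2.88), MCM5 (1.38), MCM3 (1.04) and MCM4 (0.92) were called higher than the mean of the other classes, where 31.6% of all genes were.

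Within these classes PCNA stood highest in clusters 14 and 20, whose leading genes included C1QA and CD74 (cluster 14) and CCL5 and GNLY (cluster 20). Ribosomal protein genes held 4.53% and 7.74% of their UMIs over all goats, against 0.195% and 0.320% in clusters 13 and 7. The T or natural killer-like class was less one-sided in UMIs of PCNA, with 79 in cluster 20 and 76 in cluster 7. In the macrophage-like cluster 14 PCNA stood at 220, 73.6, 117 and 90.6 CPM in Du'an 1, Du'an 2, Nubian 1 and Nubian 2, from 20, 23, 15 and 60 UMIs, while cluster 13 of the same class held at most 4.76 CPM in any goat. The T or natural killer-like cluster 20 held 189, 43.0 and 69.4 CPM in Du'an 2, Nubian 1 and Nubian 2, against 15.8, 10.8 and 5.73 CPM in cluster 7. Cluster 7 stood below the cycling granulosa-like nuclei in Du'an 1 (6.16 against 7.88 CPM) and Nubian 2 (5.73 against 8.68 CPM). It stood above them in Du'an 2 and Nubian 1. The share of UMIs on ribosomal protein genes was 2.99% to 4.79% in cluster 14 and 0.144% to 0.237% in cluster 13, and the macrophage markers summed to 9756 and 2229 CPM over the goats. The mitosis genes summed to 545 CPM in cluster 14 and 676 CPM in cluster 13, with goats on both sides (1157 against 299 CPM in Du'an 1 and 473 against 1329 CPM in Nubian 2). They summed to 369 CPM in cluster 20 and 1187 CPM in cluster 7. Without clusters 14 and 20, PCNA in macrophage-like nuclei differed from the mean of the other classes by -0.18 ± 0.54 and MCM4 by -0.23 ± 0.46. MCM5 (0.04 ± 0.48) and MCM3 (0.73 ± 0.38, adjusted p = 0.132) were not called there either, so all 4 calls of the class were lost, whereas PCNA in T or natural killer-like nuclei was still called (1.73 ± 0.36, adjusted p = 9.82e-05).

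**Figure D3:**
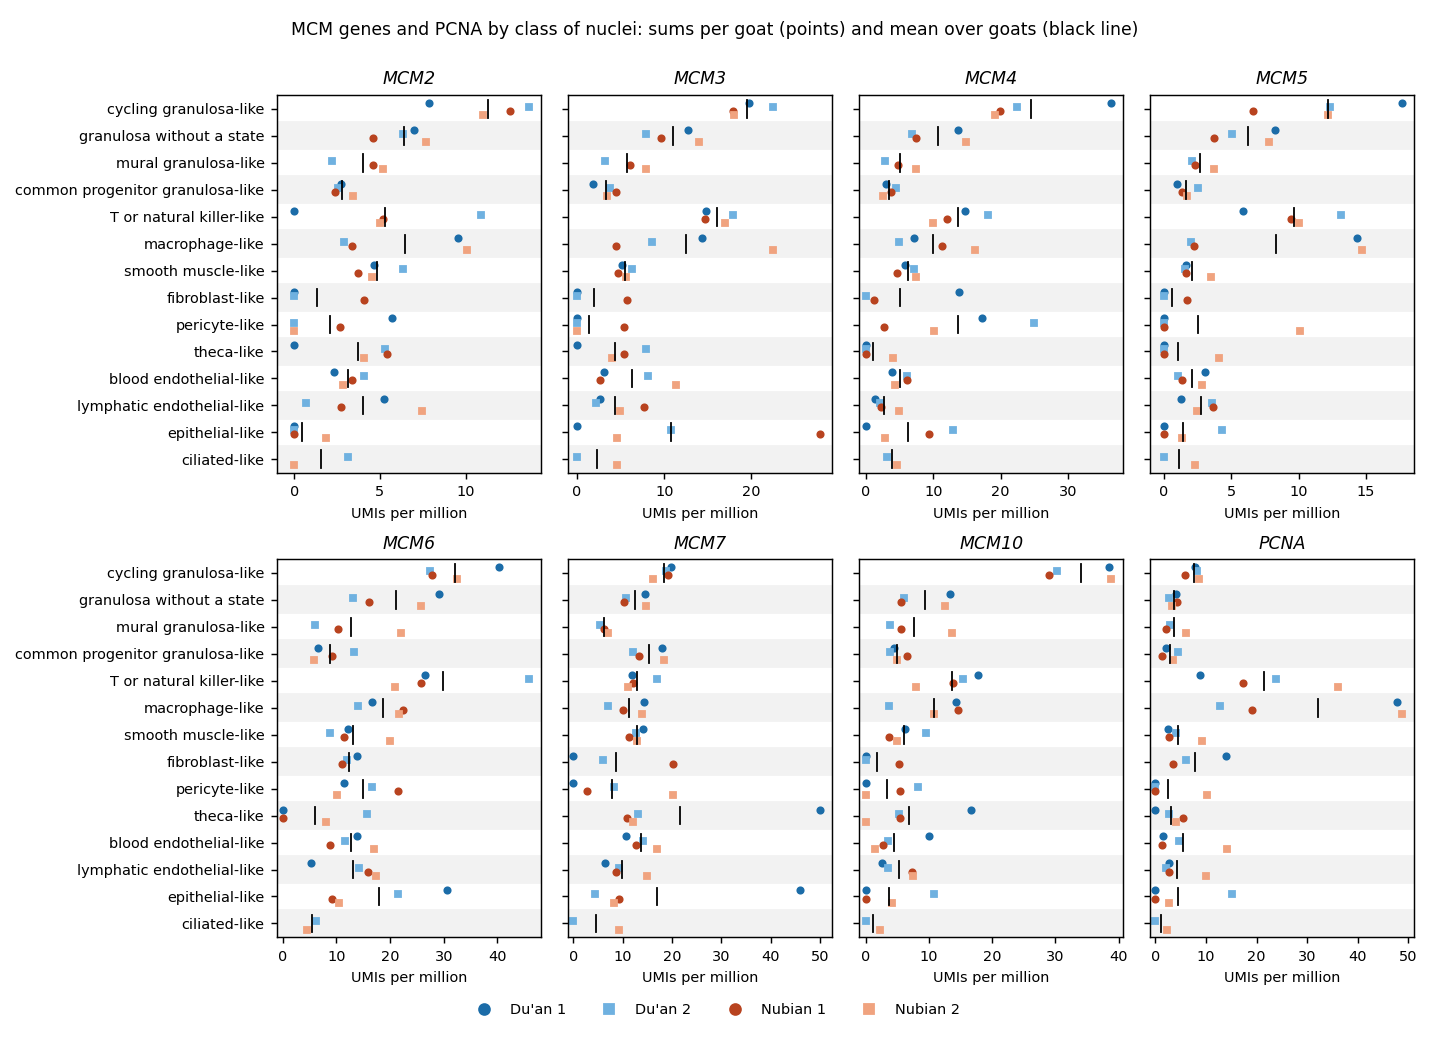
Level of each gene by class of nuclei, in CPM on a linear axis with a scale of its own for each gene, with 1 point per goat and a black line at the mean over goats. MCM10 separates the cycling class from all others, and PCNA peaks in macrophage-like and T or natural killer-like nuclei.

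Of the remaining classes, MCM7 had its highest mean level in theca-like nuclei (303), at 21.5 ± 18.9 CPM. That mean rested on 3 UMIs in Du'an 1 (49.9 CPM), the other goats stood at 10.9 to 13.2 CPM, and the class differed from none of the 13 others. Common progenitor-like nuclei were below the mean of the other classes in MCM3 (-0.99) and MCM6 (-0.74), where 10.1% of all genes were called lower, and above it in MCM7 (0.66), where 17.1% were called higher. Nuclei without a state were above the mean in MCM2 to MCM6, by 0.69 to 1.26, where 20.4% were higher. In the other 9 classes none of the 8 genes was called in either direction, where 14.3% of all tests were called higher and 7.5% lower.

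Shares of nuclei were compared at 1 fixed depth. After thinning every nucleus to 1000 UMIs and leaving out shallower ones, 12.7 ± 2.19% (SD, n = 4) of cycling granulosa-like nuclei held a UMI of at least 1 of the 8 genes, from 10.04% in Nubian 1 to 15.2% in Du'an 1 (exact 95% binomial intervals of 8.004% to 12.4% and 9.98% to 21.8%, which cover counting error only). The share was 10.7% in macrophage-like, 9.69% in T or natural killer-like and 7.82% in nuclei without a state. It was 4.43% in mural, 4.07% in common progenitor-like and 4.87% in smooth muscle-like nuclei, so the mural and progenitor shares did not exceed the smooth muscle-like one. The mitosis genes stood at 274 to 571 CPM over goats in smooth muscle-like nuclei. They stood at 277 to 476 CPM in common progenitor-like and 205 to 1407 CPM in mural nuclei. Whether smooth muscle-like nuclei hold few dividing cells was not tested. The thinning left out 18 of 1465 cycling and 4024 of 8434 smooth muscle-like nuclei, and without thinning the cycling share was 51.4%.

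The other genes of the pathway moved with the 8 in cycling nuclei. Of 59 genes tested from 4 lists, 48 were called higher and 1 lower than in non-cycling granulosa, and the median log2 fold change was 1.79. Of all genes, 7.84% were called higher and 5.41% lower in this comparison, which the counts by list below share. As the lists were drawn, helicase activation and fork genes were the most uniform, with 14 of 14 higher and a median of 2.11. TICRR, which recruits CDC45 to the helicase, changed by 4.55 ± 0.30 and stood at 128, 108, 123 and 114 CPM in the cycling nuclei of Du'an 1, Du'an 2, Nubian 1 and Nubian 2. RECQL4 (3.83) and the checkpoint mediator CLSPN (3.75) followed, and CDC7, the kinase that phosphorylates the MCM ring, had the smallest change of the list (0.74 ± 0.19, adjusted p = 0.00412).

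Of the 13 genes of the origin licensing list 7 were higher and none lower, with a median of 0.54. That list also holds MCM8 and MCM9, which act in repair, and DONSON (0.39 ± 0.23, edgeR, adjusted p = 0.303). CDC6, which loads the MCM ring, changed by 3.47 ± 0.34, MCM8 by 3.07 ± 0.24 and ORC1 by 2.69 ± 0.30. MCM9, the partner of MCM8 in repair, stood at -0.02 ± 0.18 (adjusted p = 0.975), so the MCM family was not called as a whole. Of 12 polymerase and primase genes 8 were higher, led by POLE2 (3.07), POLE (2.52) and POLA2 (2.46), and the accessory subunit POLE3 stood at 0.09 ± 0.43.

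The list of PCNA loading genes and partners, which also holds the replication genes RPA1, RPA2, RPA3 and DNA2, was called in full. Of its 20 genes 19 were higher. They were led by KIAA0101, the older name of the PCNA-associated factor PCLAF (4.28 ± 0.35), the clamp-dependent ubiquitin ligase subunit DTL (3.08 ± 0.35) and the loader subunit CHTF18 (3.07 ± 0.29). The 1 gene that fell was CDKN1A, the cell cycle inhibitor p21, which binds PCNA, at -2.21 ± 0.42 (adjusted p = 8.73e-05) and 0.618 to 3.94 CPM in cycling nuclei. It stood at 17.6 to 50.05 CPM in common progenitor-like nuclei. Nuclei without a state, at 2.75 to 5.42 CPM, and mural nuclei, at 1.21 to 3.28 CPM, both overlapped the cycling ones. The S-leaning range of cycling nuclei was called higher than the mitosis-leaning range for 8 of 11 licensing, 10 of 12 helicase and 8 of 8 polymerase genes tested. It was also called higher for 13 of 15 tested genes of the PCNA list, and 1 helicase gene was lower. Of all 6892 genes tested, 11.8% were called higher there, and list genes under the same filter on low counts were left out.

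**Figure D4:**
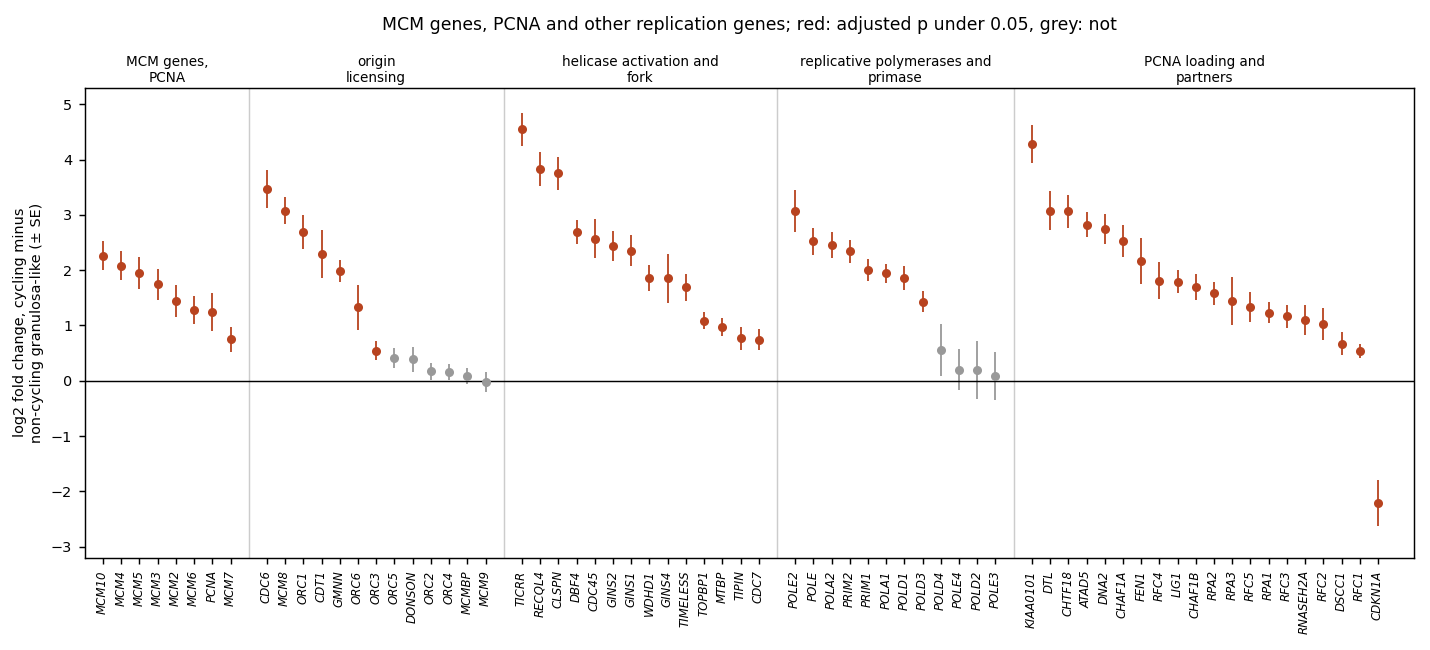
Log2 fold change of each gene between cycling and non-cycling granulosa-like nuclei, by list, with bars of 1 SE, the 8 genes beside 59 other replication genes and those called in red. All 14 helicase and fork genes lie above 0, and CDKN1A is the gene called below 0.

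Genes beside or overlapping members were checked, since the counting strand is not stated. MCM7 overlaps AP4M1 in the annotation used for names, PRKDC lies within 1000 bases of MCM4, COPS6 within 1000 bases of MCM7 and TMEM230 within 1000 bases of PCNA. MCM2 could not be placed there, and the miRNA genes MIR106B, MIR93 and MIR25, which overlap MCM7, were not tested. Between cycling and non-cycling granulosa AP4M1 stood at -0.20 ± 0.25 (adjusted p = 0.726), COPS6 at -0.10 ± 0.27 (adjusted p = 0.892) and TMEM230 at -0.10 ± 0.29 (adjusted p = 0.888), while PRKDC was higher by 0.50 ± 0.15 (adjusted p = 0.0189).

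As a description over the 52 sums, which share libraries and differ in depth, the levels of the 8 genes were correlated unevenly. Pearson's r of log2 CPM was highest for MCM5 with PCNA (0.73) and for MCM3 with MCM5 (0.68) and lowest for MCM4 with MCM7 (-0.08). The gene most like each of the 8 was YKT6 for MCM2 (0.78), DCK for MCM3 (0.87), RBL1 for MCM4 (0.72), MAD2L1 for MCM5 (0.81), FAR1 for MCM6 (0.77), POC5 for MCM7 (0.75), KIAA0101 for MCM10 (0.78) and NME1 for PCNA (0.80).

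Between breeds no difference in the 8 genes passed the test. Of 51 tests of a gene within a class, none passed after adjustment in edgeR or in DESeq2, and none had an unadjusted p under 0.05, the smallest being 0.0823 for MCM4 in macrophage-like nuclei. The edgeR fits called 0% of all genes between breeds in any of 11 classes, with 66 to 1131 genes at an unadjusted p under 0.05. In cycling granulosa-like nuclei MCM5 differed by -0.66 ± 0.43 (Nubian minus Du'an) and MCM4 by -0.49 ± 0.34, and the other 6 by -0.18 to 0.15. The rise of the 8 genes from non-cycling to cycling nuclei also did not separate the breeds, with interaction terms of -0.58 to 0.12 and adjusted p of 1.00 in edgeR, where 0% of all genes were called. The share of cycling nuclei with any of the 8 genes after thinning was 14.4% in Du'an and 11.1% in Nubian goats, a difference of -3.30 points (two-sided exact permutation test, p = 0.3333, the smallest that 2 against 2 goats allow). Differences of the size of these standard errors were not detectable with 2 goats per breed, and larger ones could be missed as well. In counts simulated from the nuclei without a state, the breed test recovered 6% of 2-fold and 66% of 4-fold changes.

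A large part of the transcripts lay outside the kept nuclei. The 2 SD limits on UMIs and genes set aside barcodes that held 24.2% of all UMIs but 70.2% of the PCNA UMIs and 34.9% to 53.7% of those of the 7 MCM genes. Nubian 2 alone contributed 55.0% of all PCNA UMIs in this way, against 6.69% of the UMIs of all genes. In the barcodes of Nubian 2 over the limits PCNA stood at 119 CPM and MCM4 at 53.8 CPM, compared with 8.70 and 7.64 CPM in its kept nuclei. When these barcodes were placed with the class whose mean profile they resembled most, those nearest the macrophage class held 27.5, 61.5, 90.5 and 153 CPM of PCNA in Du'an 1, Du'an 2, Nubian 1 and Nubian 2, and 4.31% to 4.75% of their UMIs were on ribosomal protein genes. Those nearest the cycling class held 4.85 to 9.75 CPM of PCNA and 23.6 to 34.2 CPM of MCM10, values that overlap those of the kept cycling nuclei. With these barcodes added, 7 of the 8 genes were still called in cycling against non-cycling granulosa, and MCM7 was not (0.62, adjusted p = 0.134). The share of all genes called in that fit is not given here.

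**Figure D5:**
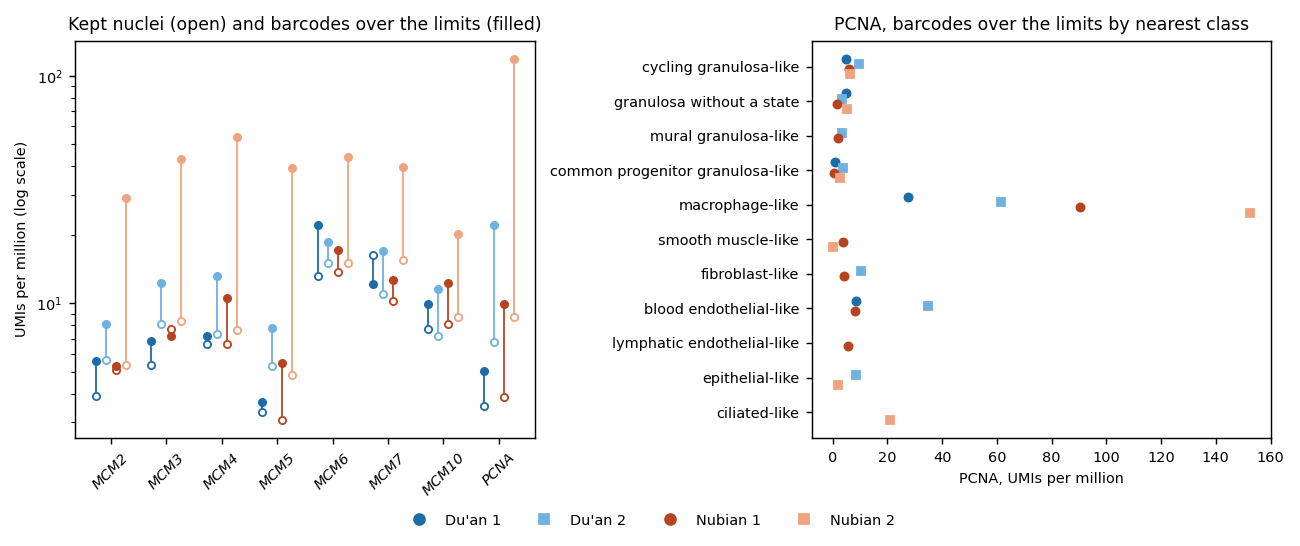
Level of each gene, in CPM on a log axis, in the kept nuclei (open) and in the barcodes over the upper limits (filled) of each library, and, on a linear axis, PCNA in those barcodes by nearest class. In Nubian 2 the barcodes over the limits reach 119 CPM of PCNA against 8.70 CPM in kept nuclei, and in Du'an 1 they reach 5.03 against 3.56 CPM.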

How the data were processed

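Nuclei of goat ovary were profiled with Chromium 3' v3 chemistry. The authors deposited, for each of 4 libraries, a matrix of UMI counts (genes by nuclei) from Cell Ranger (version 5.0.0 in the submitters' processing notes), filtered to nuclei and not normalized. The reads and the mapping were not examined, the counting strand is not stated in the sources used here, and a single-nucleus count mixes exonic and intronic reads. The deposited tables of the authors' own marker genes hold fold changes and p-values and were not used.

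Following the methods of the study, nuclei were kept within 2 SD of the mean of UMIs and genes and with at most 20% mitochondrial UMIs. Scrublet marked 0, 151, 0 and 0 nuclei in Du'an 1, Du'an 2, Nubian 1 and Nubian 2, too few for a working caller. The 151 were removed, and other doublets remain. Kept libraries held 29800057, 46262398, 54540864 and 36657983 UMIs. Counts were log-normalized in scanpy 1.11.5, and 2000 variable genes, chosen without the 8 genes, the pathway and gate lists and the markers, gave 30 components, 20 neighbours and Leiden clusters (leidenalg 0.10.2) at a resolution of 0.8, and of 0.5 in the granulosa set. A cluster was named from the list with the highest mean log2 fold where that mean reached 0.5 and 3 or more of the markers were up, meaning 10 CPM and a log2 fold of 1. Cluster 4 (4130 nuclei, 1906 of Du'an 1 and 2136 of Nubian 2) met this for no list. It was in the granulosa set, with the granulosa gene FSHR up at 1264 CPM. Among the subclusters of that set, the common progenitor-like subcluster 3 was named with 3 of 6 markers up and a mean log2 fold of 0.99. A granulosa subcluster was called cycling where the mean log2 fold of the cycling markers was at least 1.5 and a cycling marker was among its 10 leading genes. PCLAF is not listed under that symbol and was read as KIAA0101.

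As the goat is the replicate, raw counts were added up over the nuclei of each goat and class (at least 20 nuclei) and tested with edgeR 4.0.16 in R 4.3.3 (quasi-likelihood, TMM, filterByExpr, Benjamini-Hochberg over all genes tested), with the goat as a block except between breeds. Nothing in the labels says that replicate numbers pair goats, and the goats are the only replicates. Alternatives were DESeq2 1.42.0, its size factors, no filter, each goat left out, other clusterings, other gates and depths. The genes named are the 8, the 3 largest and 1 smallest change of each list and the gene most correlated with each of the 8. The 8 genes and the lists were chosen with earlier results of these data known. The steps were tested on simulated data.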

Additional observations from a re-analysis of the deposited data

Results flagged for a closer look

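In a group of 4 goats a value was singled out where its gap to the nearest other goat, as a part of the whole range, exceeded Dixon's 95% critical value, which chance does in about 1 in 20 groups. Of 88 sets of a gene and a class 10 met this, and 9 of them rest on 4 UMIs or fewer: MCM2 in epithelial-like nuclei of Nubian 2 (1.84 CPM, 4 UMIs), MCM3 in pericyte-like nuclei of Nubian 1 (5.39 CPM, 2 UMIs), MCM4 and MCM5 in theca-like nuclei of Nubian 2 (4.07 CPM, 1 UMI each), MCM5 and PCNA in pericyte-like nuclei of Nubian 2 (10.1 CPM, 1 UMI each) and PCNA in lymphatic endothelial-like nuclei of Nubian 2 (9.93 CPM, 4 UMIs, against 2.13 to 2.72 CPM in the other goats). MCM7 stood apart in Du'an 1, with 3 UMIs each, at 45.9 CPM in epithelial-like nuclei (4.31 to 9.29 CPM in the others) and 49.9 CPM in theca-like nuclei (10.9 to 13.2 CPM). MCM5 in smooth muscle-like nuclei of Nubian 2 (3.51 CPM) rested on 10 UMIs, against 1.59 to 1.66 CPM elsewhere.

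Barcodes over the upper limits on UMIs and genes enter the comparisons only as an alternative, and a level there was singled out where it was more than 2 times that of the kept nuclei of the same library, as 10 of 32 were. In Nubian 2 (403 barcodes, median of 25081 UMIs) MCM2 stood at 29.1 CPM against 5.37, MCM3 at 43.0 against 8.40, MCM4 at 53.8 against 7.64, MCM5 at 39.5 against 4.83, MCM6 at 44.1 against 15.1, MCM7 at 39.9 against 15.5, MCM10 at 20.3 against 8.76 and PCNA at 119 against 8.70 CPM. PCNA was also higher in Du'an 2 (22.2 against 6.77 CPM) and in Nubian 1 (9.97 against 3.87 CPM). Whether these barcodes hold single nuclei, several nuclei or whole cells was not tested.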

How the results depend on the processing

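Counts of calls in this section are given without the share of all genes called in the same alternative. Among the 15 alternatives of the cycling comparison the 8 fold changes stayed positive, and 8, 8, 8 and 8 genes were called with DESeq2's size factors, with DESeq2, without the filter on low counts and with list genes among the variable genes. The count fell to 5 at a resolution of 1.2 and to 2 with the highest doublet scores removed, and was 6 to 8 with each goat left out (MCM7 lost without Du'an 2, and MCM7 and PCNA without Nubian 1) and 6 without the goat block. Between granulosa states the 6 calls became 12 and 11 at resolutions of 0.4 and 1.2 and 10 with the highest doublet scores removed, and 4 to 7 with each goat left out. In the S-leaning range 5 genes became 8 without the filter, and 5 to 7 with each goat left out. In mitosis-gated nuclei 8 of 18 became 16 of 64 without the filter, and 6 to 11 with each goat left out (11 without Nubian 2). Calls by class were 22 to 27 with each goat left out, and pathway genes 40 to 45. MCM4 and PCNA in macrophage-like nuclei turned to -0.23 and -0.18 without clusters 14 and 20, an alternative chosen after the data were seen, as were the barcodes over the limits, the single cycling subcluster and the crossed pairing. The share of cycling nuclei with a UMI of the 8 genes was 26.0% at 2000 UMIs, 51.4% without thinning and 11.9% to 13.6% with each goat left out. Between breeds 0 of 51 tests were called with the replicate block as without it. Same-numbered goats deviated together by r = -0.29 to 0.27 over the classes, which gives no sign that numbers pair goats, and with the numbers crossed 0 were called as well. Depth limits what can be seen, since 3 genes fell under the filter within the cycling class.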

Other observations

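The 5579 kept nuclei that stayed without a class name were shallow, with a median of 898 UMIs, and are in no comparison above. PCNA stood there at 6.36, 14.6, 10.5 and 32.04 CPM in Du'an 1, Du'an 2, Nubian 1 and Nubian 2, from 7, 64, 31 and 70 UMIs, and MCM7 at 14.9 CPM in Nubian 1 and 22.0 CPM in Nubian 2. MCM10 stood at 5.45 to 10.2 CPM, within the range of the non-cycling granulosa states and the immune classes.

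Among the granulosa subclusters, MCM6 stood at 23.0 CPM in the mural-like subcluster 10, of which Nubian 2 held 404 of 405 nuclei, and at 10.3 and 6.09 CPM in the mural-like subclusters 1 and 7. MCM7 stood at 14.8 to 20.3 CPM in the 4 common progenitor-like subclusters and at 5.28 to 7.99 CPM in the 3 mural-like ones. Over all goats, 15.6% of cycling granulosa-like nuclei, 5.44% of nuclei without a state, 2.25% of mural-like and 1.13% of common progenitor-like nuclei held UMIs of at least 2 of the 6 helicase subunits, at unequal depths.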
